A study of Homo sapiens with 4 samples.

Results

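Long noncoding RNA (lncRNA) genes were examined in RNA-sequencing data of WT cells and ZCCHC4 KO1 cells. They were taken as the genes whose NCBI symbol begins with LINC or SNHG and a digit, ends in -AS and a digit, or has the form MIR...HG, together with 9 lncRNA genes given by full symbol (GAS5, MALAT1, NEAT1, H19, MEG3, HOTAIR, PVT1, EPB41L4A-AS1 and TUG1). The rule found 67 of the 16658 genes in the table. RefSeq classes 63 of the 67 as lncRNA and 4 as protein-coding, namely LINC02210-CRHR1, SLC30A4-AS1, F10-AS2 and CLK3-AS1. None of the 9 genes given by full symbol was found in the table analysed here. Total RNA was sequenced from untreated cells grown in DMEM with 10% FBS, with 2 libraries of WT cells (genotype wildtype) and 2 libraries of ZCCHC4 KO1 cells (ZCCHC4 knockout by CRISPR/Cas9). All 4 libraries are labelled HepG2, a line established from a human liver tumor. ZCCHC4 KO1 is 1 of the knockout lines of the study, so an effect of the knockout and a feature of this line cannot be told apart. The labels do not say whether the 2 libraries of a group came from separate cultures, so the p-values measure the spread between libraries, which may be technical.

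lncRNA genes are transcribed and often spliced and polyadenylated like mRNA genes, but their RNA is not known to encode a protein. Host genes carry small RNAs in their introns: small nucleolar RNAs (snoRNAs) guide the chemical modification of ribosomal RNA, and microRNAs (miRNAs) repress mRNAs that pair with their seed. Antisense genes are transcribed from the strand opposite to a neighbouring gene, and the name LINC stands for long intergenic noncoding, although some LINC genes overlap a protein-coding gene. ZCCHC4, the gene knocked out here, encodes an RNA-binding enzyme that methylates an adenosine of the large ribosomal RNA.

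The FPKM of ZCCHC4 was 7.22 and 5.44 for WT, compared with 1.08 and 2.29 for ZCCHC4 KO1, with both ZCCHC4 KO1 libraries below both of WT (log2 fold change -1.48, standard error (SE) 0.287, adjusted p = 0.0448 from limma). FPKM values are fragments scaled by transcript length and by library size, so the depth behind them is unknown. The values summed to between 512417 and 565199 per library. The 2 libraries of a group were offset from each other by transcript GC content, with a Spearman correlation across 10632 genes, which are not independent replicates, of 0.730 for WT replicate 2 against replicate 1 and -0.791 for ZCCHC4 KO1 replicate 2 against replicate 1. The label HepG2 was not borne out by hepatocyte markers: of 16 such genes 9 were listed, none reached an FPKM of 1 in any library, and the highest value was 0.12. AFP was among those listed, and ALB, APOA1 and HULC, a liver lncRNA gene, were not. The table held few lncRNA genes of any kind, so the absence of HULC does not bear on the label. The cells are therefore called WT and ZCCHC4 KO1 here.

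The sequences below belong to the members with the highest level and the clearest differences, and show what these noncoding genes carry. SNHG32, the most abundant member, spans 31834916 to 31839761 on the plus strand of chromosome 6 (RefSeq, GRCh38.p14) and holds SNORD48 and SNORD52. In the GENCODE annotation SNORD48 lies in an intron of all 8 SNHG32 transcripts that span it, and SNORD52 in an intron of 9 of the 10 that span it. Both are box C/D snoRNAs, a class that guides 2'-O-methylation of RNA. In the GENCODE sequences, with box C (TGATGA) and box D (CTGA) in capitals, they read:
SNORD48: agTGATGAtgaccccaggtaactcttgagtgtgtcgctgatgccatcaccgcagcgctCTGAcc
SNORD52: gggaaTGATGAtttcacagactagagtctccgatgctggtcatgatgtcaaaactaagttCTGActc

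The RefSeq window of 250 bases before the start of SNHG32 and 50 from the start on covers chr6:31834666-31834965 (GRCh38.p14, plus strand). The transcript starts with a C followed by an unbroken run of T, in capitals:
SNHG32 promoter: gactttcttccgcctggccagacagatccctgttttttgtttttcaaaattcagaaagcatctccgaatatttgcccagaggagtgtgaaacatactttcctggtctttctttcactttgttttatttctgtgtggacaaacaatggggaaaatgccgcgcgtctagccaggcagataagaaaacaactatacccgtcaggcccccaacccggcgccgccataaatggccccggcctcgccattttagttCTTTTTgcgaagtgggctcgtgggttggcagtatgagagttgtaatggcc
A C at the start followed by at least 4 pyrimidines (C or T), as in the 5' terminal oligopyrimidine tracts known from mRNAs of the translation machinery, was found in 4.07% of 35116 RefSeq windows, in 23.1% of the 26 windows of SNHG genes and in 5.63% of the 71 windows of lncRNA genes listed here. The match describes the letters only.

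MIR1915HG, which fell in ZCCHC4 KO1 cells, spans 21492658 to 21497260 on the minus strand of chromosome 10 and carries the hairpin of miR-1915 outside the exons of both its GENCODE transcripts. The 2 mature miRNAs, with the seed (bases 2 to 8) in capitals, share no seed:
hsa-miR-1915-3p: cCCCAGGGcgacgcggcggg
hsa-miR-1915-5p: aCCUUGCCuugcugcccgggcc
The level of the host transcript was measured here, and the mature miRNAs were not.

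The start regions of the 2 genes that fell differ in base composition. With each CG dinucleotide in capitals, the windows of MIR1915HG (chr10:21497211-21497510, minus strand) and LINC03040 (chr6:44000335-44000634, plus strand) read:
MIR1915HG promoter: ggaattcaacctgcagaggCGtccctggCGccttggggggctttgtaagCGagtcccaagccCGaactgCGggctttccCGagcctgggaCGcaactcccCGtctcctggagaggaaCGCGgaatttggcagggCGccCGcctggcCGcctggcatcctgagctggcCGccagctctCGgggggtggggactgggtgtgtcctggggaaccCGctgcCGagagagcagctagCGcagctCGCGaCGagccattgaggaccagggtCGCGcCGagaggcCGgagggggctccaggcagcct
LINC03040 promoter: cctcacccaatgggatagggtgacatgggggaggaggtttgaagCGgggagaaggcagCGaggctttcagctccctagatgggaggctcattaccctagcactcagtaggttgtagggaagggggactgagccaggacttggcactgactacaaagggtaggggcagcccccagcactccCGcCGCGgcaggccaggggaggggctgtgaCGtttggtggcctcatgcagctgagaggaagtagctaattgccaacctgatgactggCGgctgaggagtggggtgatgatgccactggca
The first holds 25 CG dinucleotides and the second 7, against a median of 14 over all RefSeq windows of this length. The E-box CACGTG, which reads the same on both strands and is found in 7.26% of all windows, was in neither of them, nor in that of SNHG32.

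The table held few lncRNA genes. Of the 16384 genes with a RefSeq symbol, 97.9% were protein-coding and 229 were of type lncRNA. RefSeq has 4466 genes that match the rule, and the 67 found here are 1.50% of them. Of the 67, 29 carry an older symbol of the open reading frame kind, such as C6orf48 for SNHG32, C10orf114 for MIR1915HG, C6orf223 for LINC03040, C6orf99 for LINC02901 and C17orf51 for LINC02693. The 67 genes were 33 antisense genes, 29 LINC genes, 3 miRNA host genes and 2 snoRNA host genes, on 17 chromosomes.

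Most of them were barely detected. The median FPKM over the 4 libraries was 0.153 for the 67 genes, 0.135 for the 166 other genes of type lncRNA and 3.94 for 16036 protein-coding genes. Only 3 of the 67 averaged an FPKM of at least 10, 8 averaged between 1 and 10, 31 between 0.1 and 1, and 25 less than 0.1. No gene was at 0 in all 4 libraries, whereas 22 were at 0 in at least 1. An FPKM of 1 in at least 2 libraries, the condition for the test, was reached by 12 of the 67 (17.9%), against 64.4% of all genes, 13.9% of the other lncRNA genes and 66.1% of the protein-coding genes. The 12 were 6 of the 33 antisense genes, 4 of the 29 LINC genes, 1 of the 3 miRNA host genes and 1 of the 2 snoRNA host genes. A gene that passed through the higher group only had to differ to some degree, so the 12 do not stand for the 67.

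**Figure D1:**
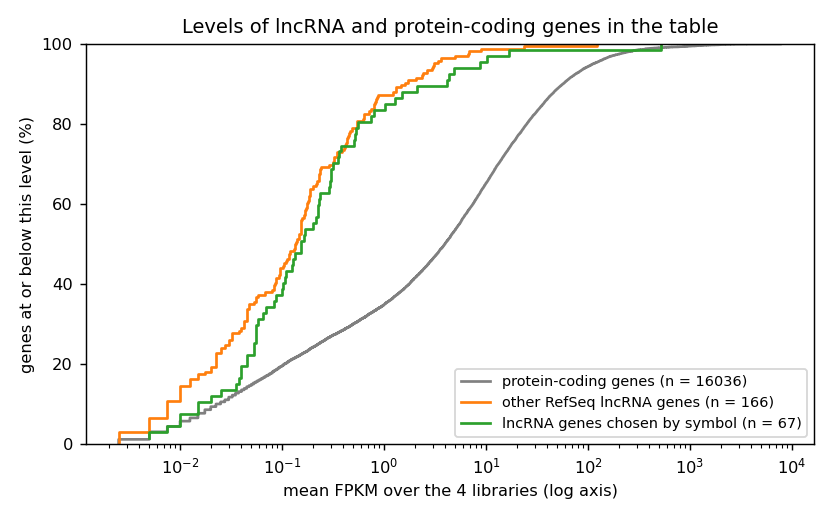
Share of genes (vertical axis, percent) at or below a mean FPKM over the 4 libraries (horizontal axis, log scale) for 67 lncRNA genes chosen by symbol, 166 other RefSeq lncRNA genes and 16036 protein-coding genes. Both lncRNA curves lie to the left of the protein-coding curve, with medians of 0.153 and 0.135 against 3.94.

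Among the 12 tested lncRNA genes, MIR1915HG and LINC03040 were called lower in ZCCHC4 KO1 cells and 0 were called higher (limma, adjusted p below 0.05). Over all 10726 genes tested, 4.48% were called lower and 1.50% higher. At an unadjusted p below 0.05, 4 of the 12 were lower and 1 was higher, against 13.9% and 8.96% of all genes tested. Stricter thresholds (p below 0.05, at least 2-fold, FDR under 0.001) were also applied to the limma fit. At these, 0 of the 12 were called, against 0.0559% of all genes lower and 0.0186% higher. So few genes passed in this fit that the result does not set the lncRNA genes apart. The thresholds are those of the study, which reported many more genes at them and names no test. The 2 groups did not overlap for 10 of the 12, with 5 lower and 5 higher in ZCCHC4 KO1, against 28.5% and 23.1% of all genes tested. ATP8B1-AS1 reached the filter only through WT and LY6S-AS1 only through ZCCHC4 KO1, so for these genes the filter itself set that the groups did not overlap. ATP8B1-AS1 was also among the 4 lower genes at an unadjusted p below 0.05. The median log2 fold change of the 12 was 0.02, beside -0.03 over all genes tested. In RNA from many cells, fewer cells that express a gene and less RNA per cell cannot be told apart.

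**Figure D2:**
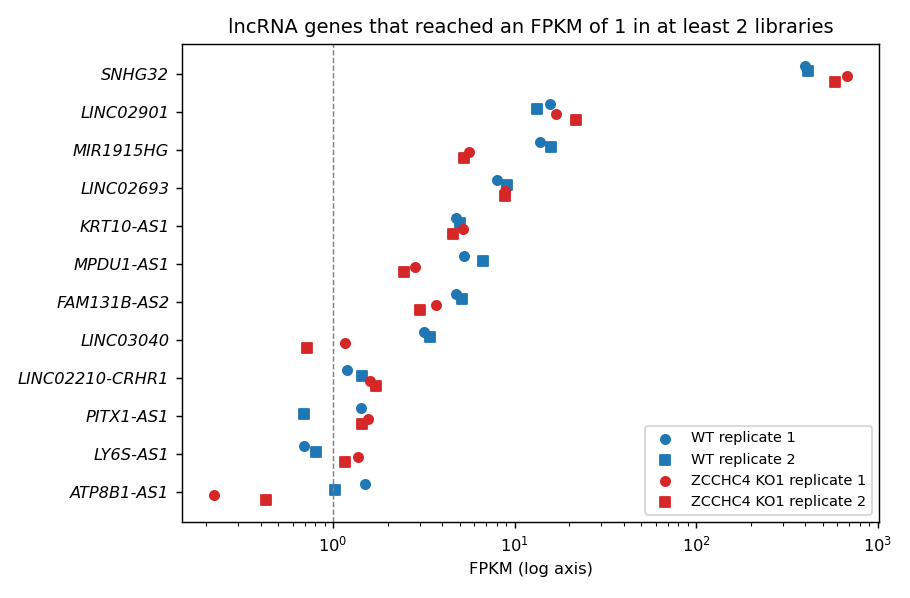
FPKM (horizontal axis, log scale) of the 12 tested lncRNA genes in each of the 4 libraries, ordered by mean level; blue marks are WT, red marks ZCCHC4 KO1, circles replicate 1 and squares replicate 2, and the dashed line is an FPKM of 1. For MIR1915HG and LINC03040 both red marks lie left of both blue marks, and SNHG32 lies far to the right of the other genes.

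SNHG32 had by far the highest level of the 67 genes. Its FPKM was 399.7 and 414.02 in WT cells, and the ZCCHC4 KO1 libraries gave 682.28 and 585.76. Both ZCCHC4 KO1 libraries were above both WT libraries. On this scale per length, SNHG32 ranked between 128 and 181 among all genes in the 4 libraries and made up 84.8% and 85.3% of the summed FPKM of the 67 genes in WT and 92.4% and 90.6% in ZCCHC4 KO1. WT averaged 407 ± 10.1 FPKM (SD, n = 2) and ZCCHC4 KO1 averaged 634 ± 68.3 FPKM (SD, n = 2), with a log2 fold change of 0.63 (SE 0.149). The difference did not pass the threshold (adjusted p = 0.0708 from limma). It passed with quantile normalization (adjusted p = 0.0036 from limma) and with the trend on GC content removed from each library (log2 fold change 0.76, adjusted p = 0.0126 from limma), and the adjusted p over the alternatives that kept the 4 libraries, here and later without crossed replicate numbers, ran from 0.0036 to 0.373. Quantile normalization called 11.1% of all genes tested and removal of the GC trend 27.8%, against 5.98% without them. With 1 library left out it ran from 0.0238, without ZCCHC4 KO1 replicate 2, to 0.583, and 14.9% of all genes were called without that library. Among tested members with a GC value, transcript GC content ranged from 42.4% to 61.2%, with 54.0% for MIR1915HG and 60.1% for LINC03040. The transcripts of SNHG32 had a GC content of 48.8%, close to the median of 49.1% of tested genes. The nearest tested genes on either side were HSPA1B, a heat shock chaperone gene 4.66 kb away, with a log2 fold change of -0.47, and NEU1, a lysosomal sialidase gene, with 0.21, neither of them called (adjusted p = 0.132 and 0.614 from limma). The other snoRNA host gene, SNHG28, was at 0.1 and 0.08 in the WT libraries, against 0 and 0.04 in those of ZCCHC4 KO1, below the filter. The FPKM of the 66 genes other than SNHG32 summed to 71.9 and 71.4 in the WT libraries, against 56.4 and 60.9 in those of ZCCHC4 KO1. Much of this difference lay in MIR1915HG alone, at 13.89 and 15.94 for WT and 5.6 and 5.28 for ZCCHC4 KO1. The sums therefore do not describe the 66 genes as a set.

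MIR1915HG, the host gene of miR-1915, fell in ZCCHC4 KO1 cells. Its FPKM was 13.89 and 15.94 in WT cells, and the ZCCHC4 KO1 libraries gave 5.6 and 5.28. The groups were far apart and the libraries of ZCCHC4 KO1 close to each other. WT averaged 14.9 ± 1.45 FPKM (SD, n = 2) and ZCCHC4 KO1 averaged 5.44 ± 0.226 FPKM (SD, n = 2), with a log2 fold change of -1.30 (SE 0.182, adjusted p = 0.0194 from limma). The call was lost without WT replicate 2 (log2 fold change -1.21, adjusted p = 0.115 from limma), whereas the adjusted p ranged from 0.000295 to 0.0480 over the alternatives that kept all libraries. MLLT10, a gene for a chromatin-associated transcription cofactor 36.5 kb away, was not called, with 11 and 8.96 in WT, 6.21 and 8.89 in ZCCHC4 KO1 and a log2 fold change of -0.37 (adjusted p = 0.414 from limma). Of the 5 tested genes within 1 Mb, 4 had a log2 fold change below 0, with a median of -0.37, and 1 was called.

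The other miRNA host genes were below the filter and were given no test. MIR3667HG was at 0.91 and 0.85 in the WT libraries, against 0.59 and 0.65 in those of ZCCHC4 KO1. MIR205HG, the host of miR-205, a miRNA typical of stratified epithelia, was at 0.15 and 0.2 for WT, compared with 0.38 and 0.43 for ZCCHC4 KO1. The groups of neither gene overlapped, with MIR3667HG lower and MIR205HG higher in ZCCHC4 KO1.

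LINC03040 was the only called LINC gene. Its FPKM was 3.18 and 3.42 in WT cells, and the ZCCHC4 KO1 libraries gave 1.16 and 0.72, which are low levels on this scale. All of the ZCCHC4 KO1 values were below the WT values. WT averaged 3.30 ± 0.170 FPKM (SD, n = 2) and ZCCHC4 KO1 averaged 0.940 ± 0.311 FPKM (SD, n = 2), with a log2 fold change of -1.16 (SE 0.202, adjusted p = 0.0335 from limma). With no filter on low values, where more genes are adjusted for, the adjusted p from limma was 0.0835, the highest of a range that began at 0.000776, and with a pseudocount of 0.1 the log2 fold change was -1.74. LINC03040 lies on chromosome 6 from 44000585 to 44007612. The nearest tested gene before it, 214 kb away, is VEGFA, the gene of the main angiogenic growth factor, which was at 32.03 and 27.14 in the WT libraries, against 14.95 and 15.57 in those of ZCCHC4 KO1, and which was also called lower (log2 fold change -0.91, SE 0.159, adjusted p = 0.0338 from limma). MRPL14, a mitochondrial ribosomal protein gene 106 kb to the other side, had a log2 fold change of -0.06 (adjusted p = 0.880 from limma). Within 1 Mb, 24 of 32 tested genes had a log2 fold change below 0, with a median of -0.21, and 3 were called. Whether the position of LINC03040 has a part in its difference was not tested.

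The remaining 3 tested LINC genes were not called. LINC02901, the member with the second-highest level, was at 15.75 and 13.28 for WT, compared with 17.02 and 21.83 for ZCCHC4 KO1, a log2 fold change of 0.39 (SE 0.193, adjusted p = 0.301 from limma) that was 0.22 without ZCCHC4 KO1 replicate 2. LINC02693 was at 8.01 and 9.13 in WT cells, and the ZCCHC4 KO1 libraries gave 8.83 and 8.91, so that its groups overlapped. LINC02210-CRHR1, a readthrough locus that ends in CRHR1, the receptor gene of corticotropin-releasing hormone, was at 1.2 and 1.45 in the WT libraries, against 1.59 and 1.72 in those of ZCCHC4 KO1. In GENCODE 82.2% of its exonic bases also belong to CRHR1, on the same strand, so its value is uncertain.

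No antisense gene was called, where 4.48% of all genes tested were called lower and 1.50% higher. At an unadjusted p below 0.05, 2 of the 6 tested were lower and 0 higher, beside 13.9% and 8.96% of all genes, and 1 of the 2 was ATP8B1-AS1, which passed the filter through WT alone. MPDU1-AS1 was at 5.24 and 6.74 for WT, compared with 2.82 and 2.47 for ZCCHC4 KO1, without overlap between the groups (log2 fold change -0.93, SE 0.210, adjusted p = 0.0643 from limma). It was called with FPKM scaled by median ratios (adjusted p = 0.0245 from limma), the lowest of a range up to 0.422, with 9.42% of all genes called at that scaling. Its partner MPDU1, which encodes a protein needed for the use of dolichol-linked mannose in glycosylation, was at 107.39 and 133.1 in WT cells, and the ZCCHC4 KO1 libraries gave 170.95 and 140.07, a log2 fold change of 0.37 (adjusted p = 0.276 from limma). MPDU1-AS1 also overlaps CD68, which was at 14.72 and 16.74 for WT and 11.9 and 11.71 for ZCCHC4 KO1. The log2 fold change of CD68 was -0.38 (adjusted p = 0.244 from limma). MPDU1-AS1 was not found in GENCODE, so the exonic bases it shares with MPDU1 or CD68 are not known and its value is uncertain.

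ATP8B1-AS1 was at 1.5 and 1.03 in the WT libraries, against 0.22 and 0.43 in those of ZCCHC4 KO1 (log2 fold change -0.77, SE 0.194, adjusted p = 0.0823 from limma). Since it was tested only because both WT libraries reached an FPKM of 1 and neither of ZCCHC4 KO1 did, its values are a description and its p is no support for a difference. The adjusted p from limma ranged from 0.0154 to 0.400 over the alternatives, and with a pseudocount of 0.1 the log2 fold change was -1.71. ATP8B1, a phospholipid flippase gene, was at 1.27 and 0.9 for WT, compared with 0.89 and 1.46 for ZCCHC4 KO1, with overlapping groups. Of the 8 tested genes within 1 Mb of ATP8B1-AS1, 7 had a log2 fold change below 0, with a median of -0.70. Over all genes tested, 5708 of 10726 were below 0. Windows of this width around other members did not all share the direction of the member. Around SNHG32, which had higher values, 31 of 46 tested genes were below 0 (median -0.22). Around MPDU1-AS1, which had lower values, it was 28 of 55 (median -0.003). Around LY6S-AS1, which had higher values, 21 of 26 were above 0 (median 0.29).

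The other 4 antisense genes differed less. FAM131B-AS2 was at 4.78 and 5.15 in WT cells, and the ZCCHC4 KO1 libraries gave 3.68 and 3, and FAM131B itself reached at most 0.1. KRT10-AS1 was at 4.75 and 5 in the WT libraries, against 5.23 and 4.56 in those of ZCCHC4 KO1, and its partner KRT10, a keratin gene of the differentiated epidermis, was at 27.21 and 30.81 for WT, compared with 28.84 and 25.5 for ZCCHC4 KO1. PITX1-AS1, of whose exonic bases 70.8% also lie in exons of MACROH2A1, was at 1.42 and 0.69 in WT cells, and the ZCCHC4 KO1 libraries gave 1.56 and 1.44, while PITX1, a homeobox transcription factor gene of hindlimb development, had a log2 fold change of 0.51 (adjusted p = 0.139 from limma). LY6S-AS1 was at 0.69 and 0.81 in the WT libraries, against 1.37 and 1.17 in those of ZCCHC4 KO1, and its partner LY6S was not listed. The groups overlapped for KRT10-AS1 and not for the other 3, of which PITX1-AS1 and LY6S-AS1 had the higher values in ZCCHC4 KO1 and FAM131B-AS2 the lower ones. LY6S-AS1 reached the filter only through ZCCHC4 KO1, which set this order. The log2 fold changes of these antisense genes were -0.46, 0.00, 0.31 and 0.37, with adjusted p = 0.240, 0.995, 0.499 and 0.266 from limma. The value of PITX1-AS1 rested on the WT libraries, with a log2 fold change of 0.047 without WT replicate 2 and 0.56 without WT replicate 1. FAM131B-AS2 was called lower with the GC trend removed (log2 fold change -0.52, adjusted p = 0.0181 from limma), where 27.8% of all genes were called.

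Partners were compared by sign as a description. Of the 33 antisense genes, 31 had the partner in the table and 22 a tested partner. The sign of the log2 fold change was the same in 11 of these 22 pairs, and in 1 of the 4 pairs in which both were tested. The partner had the higher mean FPKM in 25 of the 31 pairs. Partners were called in 2 of the 22 pairs, 1 higher and 1 lower, beside 1.50% and 4.48% of all genes tested. PRKCZ, an atypical protein kinase C gene, was higher (log2 fold change 0.90, adjusted p = 0.0482 from limma). COL4A2, a basement membrane collagen gene, was lower (log2 fold change -0.78, adjusted p = 0.0298 from limma), and both were picked with the values in view. PRKCZ-AS1 was at 0.38 and 0.51 for WT, compared with 0.37 and 0.27 for ZCCHC4 KO1, and COL4A2-AS2 was at 0.03 in WT replicate 1 and at 0 in the other libraries. Exonic bases were shared with a protein-coding gene by 22 of the 55 members found in GENCODE, among them KRT10-AS1 with 61 bases and ATP8B1-AS1 with 112. The sources used here do not state that strand was used in counting, so reads of shared stretches cannot be told apart.

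The 55 lncRNA genes below the filter were given no test in the main comparison. Their groups did not overlap in 19 genes with ZCCHC4 KO1 lower and in 11 with ZCCHC4 KO1 higher, where 16.9% and 15.8% of all 5932 genes below the filter did the same. KCNJ5-AS1 was at 0.41 and 0.45 in WT cells, and the ZCCHC4 KO1 libraries gave 0.01 and 0.07. In a fit without a filter, which calls 2.07% of all genes in either direction, KCNJ5-AS1 and MIR1915HG were the 2 called among the 67 genes (adjusted p = 0.0372 and 0.0480 from limma). KCNJ5, a potassium channel gene, was itself at most at 0.17. LINC03048 was at 0.41 and 0.27 in the WT libraries, against 0.06 and 0.07 in those of ZCCHC4 KO1. LINC03007 was at 0.2 and 0.17 for WT, compared with 0.42 and 0.39 for ZCCHC4 KO1. The names were picked with the values in view, and at such levels a few fragments can set a value. LINC03104 and LINC03105, a pair of loci on chromosome 21, had identical values in all 4 libraries (0.65, 0.2, 0.05 and 0), so the locus is uncertain. With this pair counted once, the groups did not overlap in 18 genes lower and 11 higher of the 54 below the filter. Over all 67 genes, the mean FPKM was lower in ZCCHC4 KO1 in 36 and higher in 29, or lower in 35 and higher in 29 with the pair counted once.

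The lists of decay factors, snoRNP proteins, paraspeckle proteins and coding snoRNA hosts held no called gene. Over all genes tested, 5.98% were called, 13.9% were lower and 8.96% higher at an unadjusted p below 0.05, and 46.8% had a log2 fold change above 0. Of 15 factors of nonsense-mediated decay, which degrades many snoRNA host transcripts, 0 were called (0 lower and 4 higher at an unadjusted p below 0.05), with 11 of the log2 fold changes above 0 and a median of 0.12. The 2 largest values were those of SMG5 and UPF1, at 0.62 and 0.55 (adjusted p = 0.0861 and 0.0948 from limma). Of 13 snoRNP proteins and assembly factors, 9 were above 0, with a median of 0.19, no call, and 0 lower and 1 higher at an unadjusted p below 0.05. FBL, the methyltransferase of box C/D snoRNPs, was at 284.87 and 324.55 in WT cells, and the ZCCHC4 KO1 libraries gave 437.33 and 363.05. Of 12 proteins of paraspeckles, the nuclear bodies built on NEAT1, 7 were above 0, with a median of 0.07, no call, and 1 lower and 1 higher at an unadjusted p below 0.05. Of 29 protein-coding genes that host snoRNAs, 20 were above 0, with a median of 0.12, a range from -0.64 to 0.71, no call, and 2 lower and 2 higher at an unadjusted p below 0.05. The ends of this range were HSPA8, a chaperone gene, and PPAN, a ribosome biogenesis gene. Of 26 other named lncRNA genes outside the rule, only CRNDE was listed, at 7.63 and 6.85 in the WT libraries, against 6.5 and 6.05 in those of ZCCHC4 KO1 (log2 fold change -0.18, adjusted p = 0.637 from limma).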

How the data were processed

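Total RNA of untreated WT and ZCCHC4 KO1 cells was sequenced, with 2 libraries per group. Reads were mapped to GRCh38 with Bowtie2 and quantified with RSEM by the authors, who deposited FPKM per gene and library. The supplement names a BGISEQ-500 platform and the labels an Illumina HiSeq. The annotation, versions, read filters and strand setting are not given in the sources used here, and 0 columns were left without a sample. Genes with an FPKM of at least 1 in at least 2 libraries were compared on the log2(FPKM + 1) scale by limma (version 3.58.1, R 4.3.3; lmFit, eBayes with a trend, Benjamini-Hochberg adjustment over all 10726 tested genes) and called at an adjusted p below 0.05. The log2 fold change is on this scale and understates changes of low genes. The paper names thresholds but no test for the table. The fit was tested on simulated data. The simulated noise was independent between genes, unlike the GC offsets of these libraries.

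RefSeq (GRCh38.p14) gave the symbols, types and positions, by Entrez identifier (16384 of 16658 matched), the promoter windows (52 of 67 genes) and the miRNAs. Exons, GC content and snoRNA sequences came from GENCODE v44. Alternatives were other pseudocounts, filters and scalings, a GC correction, a replicate block and leaving out each library. The members and gene lists were chosen with earlier results of these data known. The genes named were ZCCHC4, the snoRNA host genes, the called members, the 10 members with the highest mean FPKM, their antisense partners, the neighbours of called members (1 is not reported here), and up to 3 called genes of each list. Other names, among them those of ATP8B1-AS1, LY6S-AS1, SNHG28, MIR205HG, MIR3667HG, CD68, the members below the filter, the list genes without a call and the neighbours of SNHG32, were chosen after their values were seen.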

Additional observations from a re-analysis of the deposited data

How the results depend on the processing

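Among the log2 fold changes of the 12 tested lncRNA genes, 138 values over all alternatives kept their direction and their side of the threshold, 17 passed it newly, 2 lost it and 3 changed sign. Without the crossed pairing, MIR1915HG kept its call under 12 of the 13 alternatives and LINC03040 under 11 of 12, where it could not be tested at a minimum FPKM of 5. MPDU1-AS1 has no GC value and was left out where the GC trend was removed. The totals of values that kept, passed, lost or changed include the fit with crossed replicate numbers, where 49.4% of all genes were called. LY6S-AS1, LINC02901 and PITX1-AS1 passed the threshold only in that fit.

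Against 2 lncRNA genes lower and 0 higher, there was 1 lower with a minimum FPKM of 5, where fewer genes are tested, and there were 4 lower with median-ratio scaling, 4 lower and 1 higher with the GC trend removed, and 1 higher with quantile normalization. Over all genes, 5.98% were called, and 7.13%, 9.42%, 27.8% and 11.1% under these settings in turn. ATP8B1-AS1, which passed the filter through WT alone, was among the genes called lower with median-ratio scaling. It was also among those called lower with the GC trend removed, with or without the replicate block. These calls of ATP8B1-AS1 are no support for a difference. The higher gene was SNHG32, so that the snoRNA host genes called higher went from 0 to 1 with quantile normalization, to 1 with the GC trend removed and to 1 with the replicate block and the GC trend removed. The genes past the thresholds of the study went from 0 to 1 with the GC trend removed and to 2 with the replicate block and the GC trend removed. With the replicate block alone, 2 genes were lower and 0 higher, as without it, and with the block and the GC trend removed 3 were lower and 1 was higher, with 4.31% and 17.7% of all genes called. The libraries share replicate numbers only, and the within-group differences of equal numbers had a Pearson correlation of -0.787 across genes. Crossed replicate numbers, a pairing added with the data in view, gave 5 lower, 4 higher, 1 snoRNA host gene higher and 2 past the thresholds of the study, with 49.4% of all genes called. The lower genes included ATP8B1-AS1, which passed the filter through WT alone. Among the higher genes was LY6S-AS1, which passed it through ZCCHC4 KO1 alone. Leaving out 1 library assumes that the lone library varies like the other group. The log2 fold change then ran from -1.40 to -1.21 for MIR1915HG, from -1.32 to -0.99 for LINC03040 and from 0.52 to 0.74 for SNHG32. The called genes were not the same throughout. Without WT replicate 2, MIR1915HG lost its call and ATP8B1-AS1, which passed the filter through WT alone, gained a call. SNHG32 gained a call without ZCCHC4 KO1 replicate 2. The log2 fold change of LINC02693 was 0.05 and ranged from -0.038, without WT replicate 1, to 0.132, without WT replicate 2, and that of KRT10-AS1 was 0.00 and ranged from -0.079, without ZCCHC4 KO1 replicate 1, to 0.085, without ZCCHC4 KO1 replicate 2, with -0.028 without WT replicate 1. What caused these changes was not tested. With 2 libraries per group and no read totals, the precision of genes at an FPKM below 1 is not known.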

Other observations

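Of the 166 genes of RefSeq type lncRNA whose symbols the rule does not cover, 23 were tested. The groups did not overlap in 13 of them with ZCCHC4 KO1 lower and in 1 with ZCCHC4 KO1 higher, against 28.5% and 23.1% of all genes tested, and the median log2 fold change was -0.20. The 13 include LOC105371763, at 1.11 and 1.07 for WT and 0.46 and 0.71 for ZCCHC4 KO1. It reached the filter only through WT, so the filter itself set that its groups did not overlap. By limma, 2 of the 23 were called lower and 0 higher, with 6 lower and 0 higher at an unadjusted p below 0.05, beside 4.48% and 1.50% of all genes called and 13.9% and 8.96% at the unadjusted p. LOC100996720 on chromosome 1 was at 7.04 and 8 for WT, compared with 2.27 and 2.33 for ZCCHC4 KO1 (log2 fold change -1.37, adjusted p = 0.0195 from limma). LOC100126447 on chromosome X was at 160.84 and 158.57 in WT cells, and the ZCCHC4 KO1 libraries gave 78.68 and 93.74 (log2 fold change -0.89, adjusted p = 0.0264 from limma). MED14OS, named for the opposite strand of MED14, had 2.56 and 2.31 in the WT libraries, against 0.38 and 1.14 in those of ZCCHC4 KO1, and was not called (adjusted p = 0.0846 from limma). The names were picked with the values in view.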
